A study of Mus musculus with 6 samples.

Results

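Troponins and tropomyosins are the proteins that make actin filaments respond to calcium in striated muscle. The 10 genes described here are 7 troponin genes (Tnni1, Tnni2, Tnni3, Tnnt1, Tnnt2, Tnnt3 and Tnnc1) and 3 tropomyosin genes (Tpm1, Tpm3 and Tpm4). They were chosen by name on the array, together with all of their probes, and the family was selected on earlier results of the same comparison, so its values are given as a description and no p-value is printed for a member. The 10 genes have 18 of the 55681 probes of the array, 9 for the troponins and 9 for the tropomyosins, and count among 34964 named features.

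The arrays measured RNA of G1E-ER-GATA-1 cells, a single mouse erythroid line without GATA-1 of its own in which an oestrogen-responsive GATA-1 fusion is switched on by β-estradiol. Both groups were grown with erythropoietin and Kit ligand, were nucleofected with siRNA at 0 h and 24 h, had β-estradiol from 24 h and were harvested at 48 h. The siRNA was non-targeting in the 3 control samples and directed against Mi2β, encoded by Chd4, in the 3 knockdown samples. The labels do not tie the samples of a group to separate cultures, so errors and p-values cover only the spread among these arrays, possibly a technical one.

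As background, troponin is a complex of a calcium-binding subunit (troponin C), an inhibitory subunit (troponin I) and a tropomyosin-binding subunit (troponin T), each with forms typical of heart, slow or fast skeletal muscle. Tropomyosin is a coiled coil that lies along actin, and its genes give many isoforms through alternative first, middle and last exons. Troponin belongs to striated muscle, whereas tropomyosins are made in most cells, and in red cells products of Tpm1 and Tpm3 coat the short actin filaments that join spectrin into a network. In the genome the troponin I and troponin T genes lie in neighbouring pairs, Tnni3 with Tnnt1, Tnni2 with Tnnt3 and Tnni1 with Tnnt2.

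Levels are given as scaled signals, intensities multiplied so that all arrays share the same 75th percentile, and changes as log2 of knockdown over control. A probe is called detected on an array where the scanner software marked it as well above background, and the dimmest detected signal was 9.22 to 19.8 on the 6 arrays. The share of probes detected was 53.1% to 56.5% on the control arrays, against 61.3%, 74.0% and 48.5% on knockdown replicates 1 to 3, so knockdown replicate 2 stood apart. Chd4 was lower on all 3 knockdown arrays, by 1.31 ± 0.10 on the log2 scale (SE, n = 3 and 3, adjusted p = 0.00161, limma), a level 2.48-fold lower. All 11 erythroid markers that the array names were detected on all 6 arrays.

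Of the 10 genes, 7 passed the detection filter, which asks for detection on 3 or more of the 6 arrays. Tnni3 and Tnnt1 were past the threshold on the adjusted p (0.05) as higher after knockdown and Tpm1 as lower, against a background of 4.99% of the 22133 genes tested called higher and 4.56% called lower, or 9.56% either way. Since the family was chosen with this comparison in view, nothing is read from 3 of 7. The median log2 change of the 7 was 0.23 and that of all genes tested was -0.03. Probe by probe, 14 of the 18 passed the filter, 2 were called higher and 4 lower, where 4.31% of all probes tested were higher and 3.88% lower. In the fit with 1 probe per gene, the members called without knockdown replicate 2 were 2, Tnni3 and Tnnt1. The genes called in all were then 1163 in place of 2115. In the same fit, array median scaling left Tnni3 as the only gene of the family past the threshold. So did slide row 1 alone, with 2 arrays per group. Fitted each on its own, the Tpm1 probes A_55_P2187038 and A_55_P2187043 were called lower in both settings. Their log2 changes were -1.79 and -1.63 with array median scaling, and -1.63 and -1.47 in slide row 1 alone. Within slide row 1 the log2 change was 6.20 for Tnni3, 1.00 for the brighter Tnnt1 probe and -0.57 for the brightest Tpm1 probe.

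**Figure D1:**
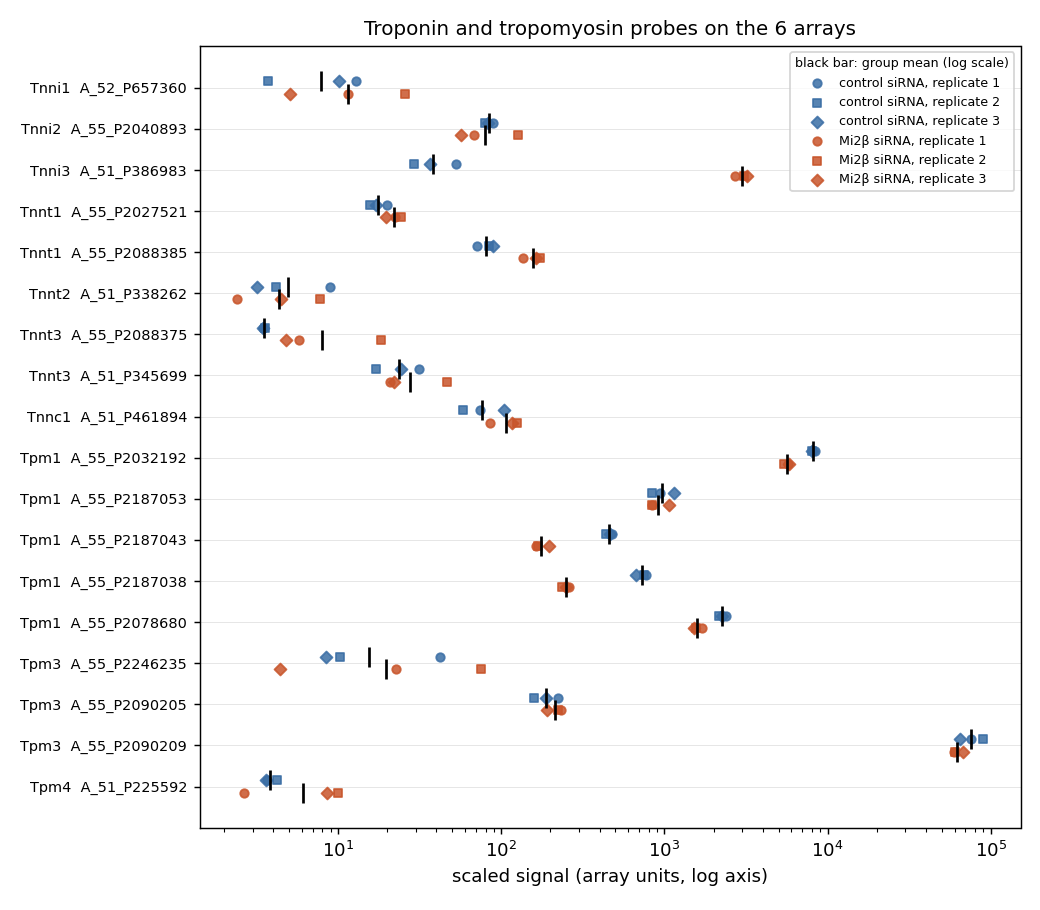
Scaled signal of each of the 18 probes (log axis) on the 3 control siRNA arrays and the 3 Mi2β siRNA arrays, with black bars for group means on the log scale. Tnni3 goes from 29.3 to 52.4 on the control arrays to between 2699.5 and 3223 on the knockdown arrays, and the dimmest rows are spread over both groups.

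Tnni3, which encodes the inhibitory troponin I of heart muscle, was near background with the control siRNA and bright after Mi2β knockdown. Its scaled signals were 52.4, 29.3 and 36.6 on control replicates 1 to 3 and 2699.5, 3061 and 3223 on knockdown replicates 1 to 3. The groups do not overlap, and the lowest knockdown array lies far above the highest control array. The log2 change was 6.28 ± 0.23 (SE, n = 3 and 3), or 77.9-fold, the second largest rise among the 22133 genes (rank 2). The probe was detected on all 6 arrays, but its control values lay not far above the dimmest detected signal, and with the normexp background correction the same change was 4.77, or 27.4-fold. Without knockdown replicate 2 it was 6.27.

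The probe that carries this result is shown because a single sequence stands for the gene. It lies at chr7:4472043-4472102 (mm9, minus strand), and in 5′ to 3′ order it reads as follows, beside the probe for Tnnc1, the partner it would bind in heart muscle.
Tnni3 A_51_P386983: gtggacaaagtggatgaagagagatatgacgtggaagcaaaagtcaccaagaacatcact
Tnnc1 A_51_P461894: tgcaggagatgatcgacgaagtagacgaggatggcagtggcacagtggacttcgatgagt
The longest run of bases that the Tnni3 probe shares with any other member probe is between 4 and 8 of its 60 bases.

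The other troponin I genes had no such change. Tnni1, the slow skeletal form, was detected on none of the control arrays and 1 of the knockdown arrays, with scaled signals of 12.8, 3.69 and 10.1 against 11.5, 25.5 and 5.08. Tnni2, the fast skeletal form, was detected on all 6 arrays, at 89.5, 78.8 and 83.1 with the control siRNA and 68.4, 126.9 and 56.7 after knockdown. The Tnni2 groups overlap, the highest and the lowest value both being knockdown arrays, and the log2 change was -0.08 ± 0.30 (SE, n = 3 and 3). Without knockdown replicate 2, the brightest array for both genes, the Tnni2 change was -0.43 and the Tnni1 change -0.03 in place of 0.55.

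Among the tropomyosin-binding subunits, Tnnt1, the slow skeletal troponin T, was higher after knockdown. Its brighter probe, A_55_P2088385, had scaled signals of 70.4, 84.0 and 89.2 on the control arrays and 136.6, 172.2 and 162.9 on the knockdown arrays. Every knockdown value exceeds every control value. The log2 change was 0.95 ± 0.14 (SE, n = 3 and 3), or 1.94-fold, and 0.57 with normexp. Leaving out control replicate 2 took Tnnt1 below the threshold, and it stayed past it without each of the other arrays, while in the fit of each probe on its own it kept its call in 2 of those 6 fits. Its second probe, A_55_P2027521, lies at chr7:4456172-4456231, just beside the first at chr7:4456265-4456324, and is listed for an Ensembl transcript. That probe read 19.9, 15.8 and 17.1 against 22.3, 24.2 and 19.6, close to the dimmest detected signals, and was detected on 1 control and 2 knockdown arrays. Its groups overlap and its change was 0.33 ± 0.14 (SE, n = 3 and 3), or -0.04 with normexp, so the change at Tnnt1 rests on 1 of its 2 probes.

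Tnnt2, the cardiac troponin T, was detected on no array, at 8.89, 4.18 and 3.19 with the control siRNA and 2.40, 7.73 and 4.46 after knockdown. No order between these values is measured. Tnnt3, the fast skeletal form, has a pair of overlapping probes that start 33 bases apart and share a run of 27 bases. They are not independent measurements. Of these, A_51_P345699 read 31.4, 17.2 and 24.2 against 20.7, 46.7 and 21.9, with a log2 change of 0.23 ± 0.38 (SE, n = 3 and 3) and -0.15 without knockdown replicate 2. The other, A_55_P2088375, was detected on knockdown replicate 2 alone, at 18.3, and lay between 3.44 and 5.71 on the other arrays.

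Tnnc1, the calcium-binding subunit shared by heart and slow skeletal muscle, was detected on all 6 arrays without a clear difference. It read 73.6, 57.9 and 104.2 on the control arrays and 84.7, 124.3 and 117.0 on the knockdown arrays. Knockdown replicate 1 falls below control replicate 3, so the groups overlap, and the log2 change was 0.49 ± 0.26 (SE, n = 3 and 3). Of the 3 cardiac troponin subunits, then, the inhibitory one was higher in all knockdown arrays, the calcium-binding one was detected with overlapping groups, and the tropomyosin-binding one was not detected on any array.

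**Figure D2:**
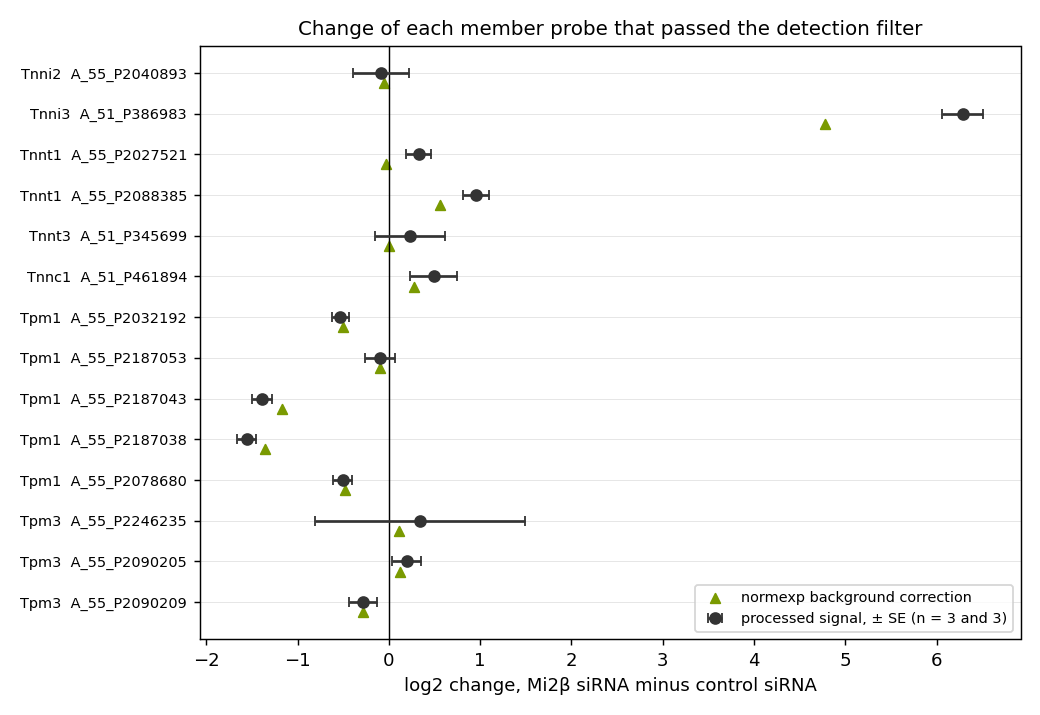
Log2 change of the 14 probes that passed the detection filter, Mi2β siRNA minus control siRNA, with bars of 1 SE (3 arrays per group) and triangles for the normexp background correction. Tnni3 stands at 6.28 (4.77 with normexp), while the Tpm1 probes run from -0.10 to -1.56.

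Tpm1, which encodes a tropomyosin of striated muscle and, through other exons, of non-muscle cells, was detected on all 5 of its probes on all 6 arrays, and 4 of the 5 were past the threshold as lower. The brightest, A_55_P2032192, read 8414, 8025 and 7966 with the control siRNA and 5679, 5426 and 5790.45 after knockdown. The groups are well separated, with a log2 change of -0.53 ± 0.09 (SE, n = 3 and 3), 1.44-fold lower. A_55_P2078680 read 2397, 2156 and 2242 against 1707, 1553 and 1525, a change of -0.51 ± 0.10 (SE, n = 3 and 3). For these 2 probes the change is near equal although they lie 9108 bases apart and the array lists only 1 transcript that holds both.

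Both are shown because they read different parts of Tpm1 with the smaller change. They lie at chr9:66871166-66871225 and chr9:66880274-66880333 (mm9, minus strand).
Tpm1 A_55_P2032192: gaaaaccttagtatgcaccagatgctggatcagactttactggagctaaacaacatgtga
Tpm1 A_55_P2078680: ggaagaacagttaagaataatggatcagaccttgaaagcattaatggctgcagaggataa

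A larger change was seen at another place in Tpm1. A_55_P2187038 (chr9:66875796-66875855) read 771, 747 and 671 on the control arrays and 258, 234 and 250.3 on the knockdown arrays, a log2 change of -1.56 ± 0.10 (SE, n = 3 and 3) and 2.94-fold lower. A_55_P2187043, which overlaps it with a start 14 bases away, read 477, 440.2 and 461 against 164, 167 and 195, a change of -1.39 ± 0.11 (SE, n = 3 and 3) and 2.63-fold lower. In neither probe do the groups overlap, and because the 2 share most of their bases they are not independent measurements of the transcript. Both are listed for the same 3 transcripts. Both stayed past the threshold without each array in turn. In the same fits of each probe on its own, A_55_P2032192 and A_55_P2078680 were called in 0 of 6, so leaving out any one array reduced the 4 Tpm1 probes called to 2. In the fit with 1 probe per gene, the call for the gene, which rests on its brightest probe, was lost without control replicate 1, control replicate 2, knockdown replicate 1 or knockdown replicate 2.

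The remaining probe, A_55_P2187053 (chr9:66872131-66872190), is listed for 2 other transcripts. Its scaled signals were 939, 843 and 1150.5 with the control siRNA and 835, 843 and 1059 after knockdown. The groups overlap and the log2 change was -0.10 ± 0.17 (SE, n = 3 and 3). The transcripts listed for this probe, for the overlapping pair and for the brightest probe have no member in common, whereas A_55_P2078680 is listed for 3 transcripts and shares 1 with the overlapping pair.

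Taking each probe relative to A_55_P2032192 on the same array removes the scaling between arrays. The log2 ratio of A_55_P2187038 was -3.48 ± 0.08 on the control arrays and -4.51 ± 0.04 on the knockdown arrays (SD, n = 3), a difference of -1.03, and -0.85 with normexp. For A_55_P2187043 the difference was -0.86, again with separate groups. The ratio of A_55_P2187053 moved the other way, from -3.07 ± 0.24 to -2.63 ± 0.16 (SD, n = 3), a difference of 0.43. Its groups do not overlap but lie close, at -2.79 on control replicate 3 and -2.77 on knockdown replicate 1. The log2 change of the probe itself was -0.10, with overlapping groups, and that of A_55_P2032192 was -0.53. A_55_P2078680 moved by 0.02 and its groups overlap. The Tpm1 probes therefore changed by unequal amounts, which a ratio within an array shows without telling which transcripts stayed the same. An exact permutation test of 3 arrays against 3 cannot give a two-sided p below 0.10, and none was run on ratios of members chosen with this contrast known.

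**Figure D3:**
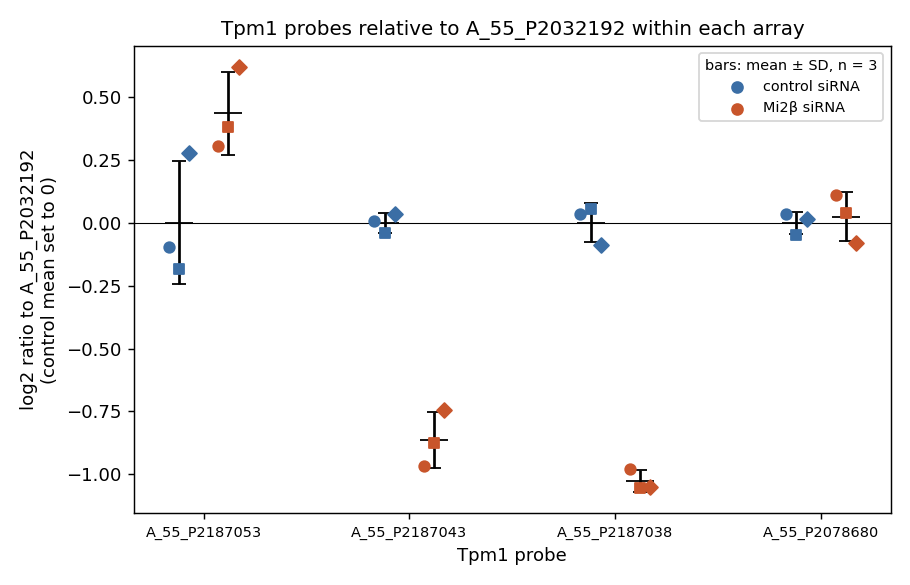
Log2 ratio of 4 Tpm1 probes to the Tpm1 probe A_55_P2032192 within each array, with the control mean of each set to 0, points for arrays (circle, square and diamond for replicates 1, 2 and 3) and bars for mean ± SD (n = 3). The overlapping probes A_55_P2187043 and A_55_P2187038 lie 0.86 and 1.03 below the control mean after knockdown, A_55_P2187053 lies 0.43 above it, and A_55_P2078680 stays near 0.

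Tpm3, whose products include a tropomyosin of slow skeletal muscle and one of red cells, had overlapping groups on all 3 of its probes. A_55_P2090209 read 75168.5, 89904 and 64453 on the control arrays and 59778, 60211.5 and 67190.5 on the knockdown arrays, a log2 change of -0.28 ± 0.15 (SE, n = 3 and 3). A_55_P2090205 read 221, 157 and 187 against 232, 221 and 191, a change of 0.19 ± 0.16 (SE, n = 3 and 3). A_55_P2246235 was detected on 1 control and 2 knockdown arrays, ran from 4.37 to 74.97, and had a change of 0.34 ± 1.15 (SE, n = 3 and 3) that became -0.63 without knockdown replicate 2. The Tpm3 probes are listed for different sets of transcripts, and no level is set here against another because probes differ in brightness. Tpm4, a non-muscle tropomyosin, had 1 probe, detected on no array, at 3.65, 4.22 and 3.59 against 2.63, 10.03 and 8.52.

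Of the 7 member probes that some array did not detect, 6 were brightest on knockdown replicate 2, the array with the largest share of probes detected. The part of that array in their values was not tested, beyond the changes without it given here. The arrays measure RNA of a whole culture, so fewer cells with a transcript and less of it per cell cannot be told apart.

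The probes of Tnni3 and Tnnt1 lie 15.8 kb apart, those of Tnni2 and Tnnt3 68.2 kb and those of Tnni1 and Tnnt2 42.6 kb. Both members of the first pair were past the threshold and no gene of the other pairs was, although Tnni1 and Tnnt2 were not tested. Genes within 250 kb of these probes were tested as a measure outside the family. Near Tnni3 and Tnnt1, 13 features were tested, of which 2 rose and none fell. Rdh13, a mitochondrial retinol dehydrogenase 78.3 kb away, had scaled signals of 285, 332 and 236 against 559, 448 and 469, and rose by 0.80 ± 0.16 (SE, n = 3 and 3, adjusted p = 0.0354, limma). Cox6b2, the testis form of a cytochrome c oxidase subunit, 231 kb away, read 303, 258 and 300.4 against 939, 955 and 982, and rose by 1.74 ± 0.10 (SE, n = 3 and 3, adjusted p = 0.000692, limma), 3.34-fold. The Rdh13 call was lost on leaving out any one array other than control replicate 2, while Cox6b2 kept its call without each array and, alone among the neighbours, with array median scaling.

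No other feature had a probe between those of the pair. Dnaaf3, whose probe lies 2.47 kb from the Tnni3 probe, was detected on 1 knockdown array only and was not tested. Syt5 (19.3 kb) changed by 0.36 ± 0.34, Ppp1r12c (22.8 kb) by -0.00 ± 0.11 and Ptprh (28.9 kb) by 0.01 ± 0.46 (SE, n = 3 and 3), and none passed. Ppp1r12c, a regulator of myosin phosphatase, was bright on all arrays, from 10481 to 12561, and its values interleave. Farther out, Kmt5c had a log2 change of -0.49 ± 0.12 (SE, adjusted p = 0.0553, limma, n = 3 and 3). Ppp6r1 had -0.51 ± 0.16, Tmem86b -0.40 ± 0.25, Hspbp1 -0.22 ± 0.15 and Gp6 -0.28 ± 0.42 (SE, n = 3 and 3). Pira6 had -0.19 ± 0.16, and Ncr1, detected on 1 control and 2 knockdown arrays, 0.47 ± 0.93 (SE, n = 3 and 3). The feature NAP114507-1, without a gene symbol, had 0.07.

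**Figure D4:**
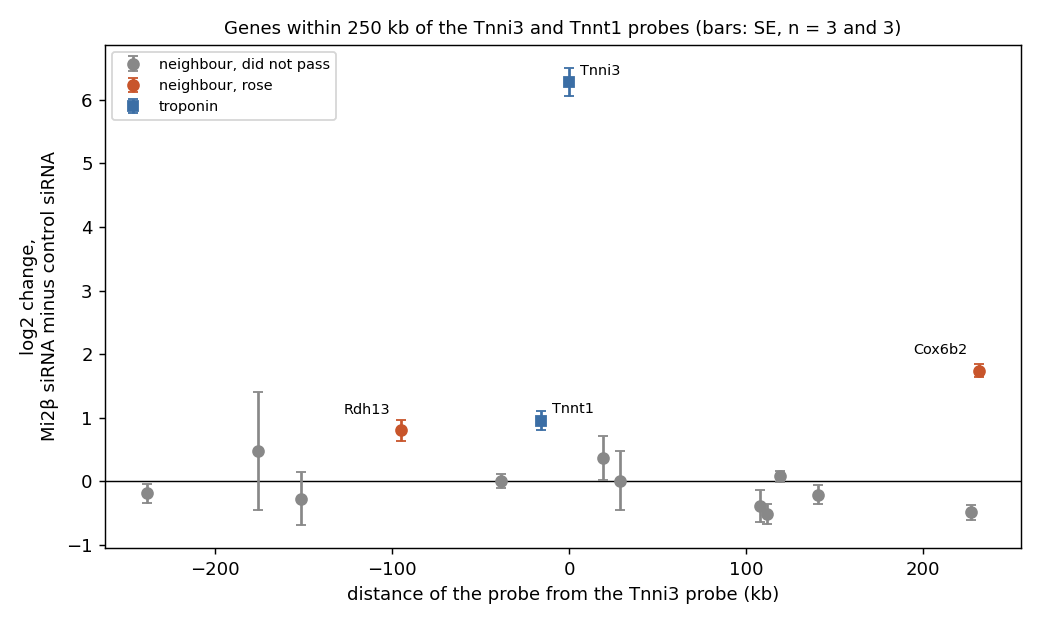
Log2 change, Mi2β siRNA minus control siRNA, of the 13 tested neighbours against the distance of their probes from the Tnni3 probe in kb, with Tnni3 and Tnnt1 as squares and bars of 1 SE (3 arrays per group). Tnni3 stands alone at 6.28, the tested neighbours nearest to it, Syt5 and Ptprh, have 0.36 and 0.01, and Cox6b2 at 1.74 is the highest neighbour, 231 kb from it.

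Near Tnni1 and Tnnt2, 6 features were tested and 2 rose, Phlda3 by 0.90 ± 0.11 (SE, adjusted p = 0.00696) and Tmem9 by 0.81 ± 0.16 (SE, adjusted p = 0.0337, limma, n = 3 and 3). Tmem9 kept its call only without knockdown replicate 2, among the 6 fits that leave out 1 array, and Phlda3 kept it in all 6. Near Tnni2 and Tnnt3, 16 features were tested and none passed, with log2 changes from -0.42 to 0.46. Over the 3 pairs, 4 of 35 neighbours passed, all higher, which is 11.4% beside the background of 9.56%. This share is near the background, and without knockdown replicate 2 the count was 3. The direction depended on the processing. Normexp gave 4 rising and 2 falling, array weights 5 and 2, and array median scaling 1 and 0. Those that fell with normexp were Kmt5c and Ppp6r1, near Tnni3.

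Promoter sequences of Tnni3 and Tnnt1 are shown because these neighbours were both higher. RefSeq (GRCm38.p6) places the starts of the pair 6.55 kb apart on the minus strand, and the 250 bases before each start are printed with matches to CACCC, the core of sites for Krüppel-like factors, and to the TATAAA box in capitals, on either strand. The windows are chr7:4522529-4522778 and chr7:4515976-4516225 (GRCm38.p6, minus strand).
Tnni3: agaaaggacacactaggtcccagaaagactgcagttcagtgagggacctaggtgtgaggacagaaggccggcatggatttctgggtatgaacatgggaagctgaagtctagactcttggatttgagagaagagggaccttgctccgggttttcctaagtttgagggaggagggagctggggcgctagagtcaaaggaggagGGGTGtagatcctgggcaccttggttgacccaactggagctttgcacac
Tnnt1: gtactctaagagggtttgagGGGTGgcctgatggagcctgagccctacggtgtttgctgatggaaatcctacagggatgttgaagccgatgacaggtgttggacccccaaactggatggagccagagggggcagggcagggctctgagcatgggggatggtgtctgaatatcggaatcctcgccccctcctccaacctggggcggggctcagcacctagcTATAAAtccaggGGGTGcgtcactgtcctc

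The Tnni3 window holds 1 CACCC match, on the opposite strand 49 bases before the start. The Tnnt1 window holds 2, at 230 and 18 bases before the start, and a TATAAA at 30. Neither window holds AGATAA or TGATAA, the letters GATA factors favour, on either strand. Of 32851 promoters of the same length, 16.6% hold AGATAA or TGATAA, 52.0% hold CACCC and 12.4% hold TATAAA. Among 11 promoters found for 8 of the members, 2 hold a GATA match, 1 of Tnnt2 and 1 of Tpm3, and 9 hold CACCC. The 2 windows of Tnni1 among these 9 overlap and hold the same CACCC matches, which are thus counted more than once. A match describes letters only and is not a site.

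Other genes of the contractile apparatus were taken from 7 lists by role. Of 77 tested genes outside the family, 10 rose and 5 fell, which is 19.5% beside the background of 9.56%. The lists were chosen with earlier results of these data known, so nothing is read from this share. The adjusted p-values of list genes below carry the same limit. Normexp gave 9 rising and 9 falling, normexp with quantile normalization 10 and 8, and array median scaling 5 and 1. Without knockdown replicate 2 the count was 10, of which 8 rose and 2 fell. Of the 15, Flnc, Actn3, Mybpc3, Ryr1 and Actn4 kept their calls with array median scaling.

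Among partners of the thin filament, 2 of 8 tested genes rose and none fell. Cnn2, a calponin of non-muscle cells that binds actin, read 265, 267 and 296 against 425, 404 and 485, and rose by 0.66 ± 0.11 (SE, n = 3 and 3, adjusted p = 0.0188, limma). Lmod3, a leiomodin that starts actin filaments in skeletal muscle, rose by 0.60 ± 0.12 (SE, n = 3 and 3, adjusted p = 0.0369, limma). Leaving out any one array or using normexp (0.25) took Lmod3 below the threshold, and Cnn2 lost its call without control replicates 1 or 2 or knockdown replicates 1 or 3. The skeletal troponin C gene Tnnc2 changed by -0.12 and did not pass. The cardiac actin gene Actc1 and the leiomodins Lmod1 and Lmod2 were detected on no array.

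In the thick filament and M-band list, 2 of 14 tested genes rose and none fell. Mybpc3, the cardiac myosin-binding protein C, read 29.4, 30.7 and 22.8 against 109, 151 and 123, and rose by 2.20 ± 0.18 (SE, n = 3 and 3, adjusted p = 0.00163, limma), 4.61-fold. With normexp the Mybpc3 change was 0.92. Mybpc2, the fast skeletal form, rose by 0.91 ± 0.14 (SE, n = 3 and 3, adjusted p = 0.0150, limma), with 0.28 and no call under normexp, and no call without knockdown replicate 1. Of the myosins of muscle fibres, Myh1, Myh2, Myh3, Myh4 and Myl1 were detected on no array, whereas Myh7, Myh8, Myl3 and Mylpf were detected on all 6 without passing the test, with log2 changes of -0.10, 0.10, 0.01 and 0.57.

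The Z-disc list had 2 of 8 tested genes higher. Flnc, the muscle filamin that links actin at the Z-disc, read 35.6, 35.3 and 36.6 on the control arrays and 260.4, 272 and 269.9 on the knockdown arrays. It rose by 2.90 ± 0.08 (SE, n = 3 and 3, adjusted p = 8.1e-05, limma), 7.47-fold, and by 1.61 on the log2 scale with normexp. Actn3, the actinin of fast fibres, read 142, 127 and 121 against 479, 431 and 508, and rose by 1.86 ± 0.11 (SE, n = 3 and 3, adjusted p = 0.000748, limma). The cardiac and skeletal Z-disc genes Csrp3, Myoz2 and Myot were detected on no array.

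Of 10 tested genes of calcium handling, 2 rose. Ryr1, the calcium release channel of skeletal muscle, was detected on none of the control arrays and on all 3 knockdown arrays, at 37.8, 39.1 and 40.6. With control values set to the dimmest detected signal of each array, it was 2.77-fold higher. The fitted difference had an adjusted p = 0.00350 (limma, n = 3 and 3). Ryr1 passed the filter through the knockdown arrays alone, so its difference and its p are not independent of that choice. Without it, 9 of the other 76 list genes rose and 5 fell. Undetected signals can lie above the dimmest detected one, so the 2.77-fold is not a strict bound. With normexp the Ryr1 change was 0.53 on the log2 scale. Atp2a3, a calcium pump of blood cells and other non-muscle cells, read 384, 357 and 375 against 766, 764 and 747, and rose by 1.03 ± 0.08 (SE, n = 3 and 3, adjusted p = 0.00180, limma). Pln and Sln, the small inhibitors of the muscle pumps, were detected on no array.

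Of 14 tested muscle transcription factors, 2 rose and 1 fell. Six4 rose by 0.91 ± 0.13 (SE, n = 3 and 3, adjusted p = 0.00987, limma), and Mef2d rose by 0.47 ± 0.10 (SE, n = 3 and 3, adjusted p = 0.0406, limma). Mrtfa, a coactivator of serum response factor that senses free actin, fell by 0.65 on the log2 scale (SE 0.11, n = 3 and 3, adjusted p = 0.0218, limma). Mef2d lost its call on leaving out any one array, and Mrtfa without control replicate 2 or any knockdown array. The myogenic factors Myog and Myf5 and the coactivator Myocd were detected on no array. The myogenic factors Myod1 and Myf6 were each detected on 2 control and 2 knockdown arrays. Their log2 changes were -0.21 and -0.45, and neither passed.

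The short actin filaments of the red cell skeleton, the site where Tpm1 and Tpm3 products act in erythroid cells, had all 12 listed genes tested, 3 of them lower and none higher. Add3, an adducin that caps actin and recruits spectrin, read 6001, 5753 and 5856 on the control arrays and 3229, 3108 and 3157.5 on the knockdown arrays, and fell by 0.89 on the log2 scale (SE 0.08, n = 3 and 3, adjusted p = 0.00266, limma). Epb41, which strengthens the bond of spectrin to actin, fell by 0.58 (SE 0.11, adjusted p = 0.0326) and Add1 by 0.53 (SE 0.10, adjusted p = 0.0283, limma, n = 3 and 3). Add1 kept its call only without control replicate 3, and Epb41 likewise, among the 6 fits that leave out 1 array. The tropomodulin gene Tmod1, which caps the pointed end of tropomyosin-coated filaments, changed by 0.54 without passing, and Actb by -0.21. In the list of non-muscle actomyosin, 1 of 11 tested genes fell and none rose. This was Actn4, a non-muscle actinin, lower by 0.94 on the log2 scale, with an SE of 0.12 (, n = 3 and 3, adjusted p = 0.00672, limma).

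**Figure D5:**
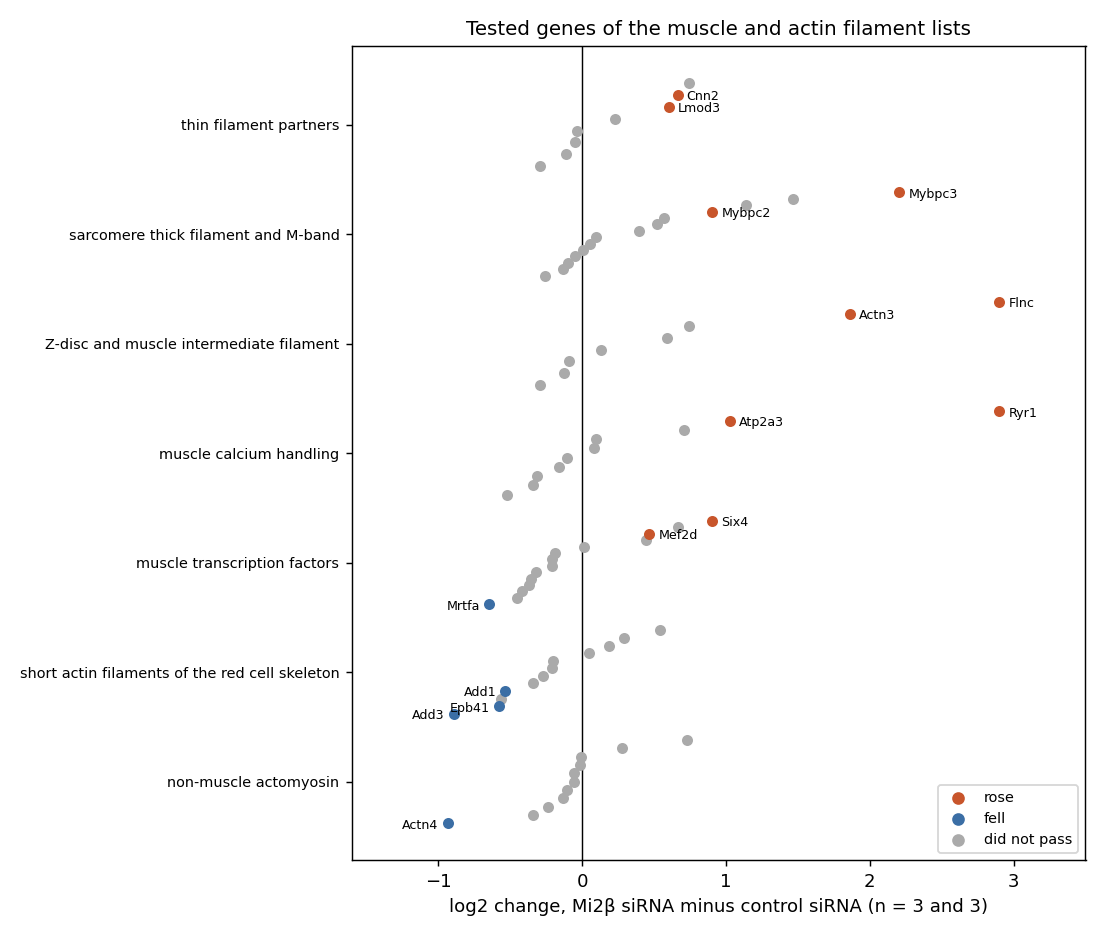
Log2 change, Mi2β siRNA minus control siRNA (3 arrays per group), of the 77 tested genes of the 7 lists, coloured by whether they rose, fell or did not pass. The 10 that rose lie in the first 5 lists, up to 2.90, where the position of Ryr1 is a fitted value from undetected control signals. Of the 5 that fell, 4 lie in the red cell skeleton and non-muscle lists.

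Markers of the muscle types were counted beside these values. Of 13 cardiac markers, 7 were tested and 1 rose, Mybpc3, while Actc1 and Pln were detected on no array. The summed scaled signal of the tested cardiac markers was 226 to 260.02 on the control arrays and 306 to 472 on the knockdown arrays, highest on knockdown replicate 2. Without Mybpc3 the sums of the other 6 overlap, at 231, 195 and 236 against 214, 321 and 183. Of 13 skeletal markers, 6 were tested and 1 rose, Ryr1, with sums of 194 to 222 against 235 to 348. Without Ryr1 these sums also overlap, at 215, 188 and 192 against 216, 309 and 194. Of the 13 skeletal markers, Myog, Myf5, Myh1, Myh2 and Myh4 were detected on no array. Myod1, Myf6 and Acta1 were each detected on 2 control and 2 knockdown arrays, and Mylpf and Atp2a1 on all 6, without passing. Of 10 smooth muscle and fibroblast markers, 3 were tested and none passed. Of 10 megakaryocyte and platelet markers, 8 were tested, 4 fell and none rose. Sums of that list were 23864 to 26008 against 7875 to 10700.3, and Gp6, one of its members, is also a neighbour of Tnni3 and did not pass. Of the 11 erythroid markers, 1 rose and 4 fell. Their part in the troponin and tropomyosin values was not tested.

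The 5 genes whose 6 array values were most alike those of Tnni3, among 14268 genes with a symbol, were Dppa5a (Pearson r = 0.9999), Gtsf1 (0.9998), Kremen2 (0.9995), Cox6b2 (0.9987) and Ehf (0.9986). These correlations run over 6 arrays in 2 groups and describe mainly the step between the groups. In all, 156 genes had an r of at least 0.99. Of the 5, Gtsf1 and Kremen2 were detected on all 3 knockdown arrays and none of the control arrays. Dppa5a was detected on 1 control array and all 3 knockdown arrays, and read 17.9, 12.3 and 13.9 against 307, 319 and 328. Cox6b2 is the neighbour described above.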

How the data were processed

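RNA of 6 samples was labelled with Cy3 and hybridised to 1-colour Agilent arrays, 1 per sample. Per the file headers, the deposited intensity values are background-subtracted processed signals made with version 10.7.3.1 of Feature Extraction, with probe positions on mm9. The authors' deposited value table held the same intensities rounded (100% within 0.005 or its printed precision), and all 2115 genes called were called from it too. Flagged and control spots were left out, spots of a probe averaged, and log2 values taken relative to each array's 75th percentile. The probe with the highest mean stood for its gene. Groups were compared with limma 3.58.1 in R 4.3.3 (lmFit, eBayes, two-sided, Benjamini-Hochberg over 22133 genes, threshold 0.05), and the fit was tested on simulated data. Named genes were all members, up to 4 genes past the threshold per list by size of change, tested neighbours of Tnni3 and Tnnt1, those past the threshold near the other pairs, and the 5 genes most like Tnni3. Other genes were named after their values were seen. The members and lists were chosen with earlier results of these data known. The labels do not say how replicate numbers were assigned, and same-numbered arrays deviated from their group means with correlations of 0.21, -0.32 and 0.13. Without a genome of that build, the exon under a probe is not given. The number of arrays limits the precision. Alternatives covered background correction, scaling, filter, probe choice, variance model, slide row and each array left out.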

Additional observations from a re-analysis of the deposited data

How the results depend on the processing

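The counts called were 2115 genes in all, 3 members, 15 list genes and 4 neighbours. Array median scaling, which moved the median of all genes to -0.27 on the log2 scale, gave 831, 1, 6 and 1. Slide row 1 alone, with 2 arrays per group, gave 720, 1, 7 and 1, and row 2 had 1 array per group and no fit of its own. No detection filter gave 993 genes, 8 list genes and 2 neighbours. Normexp with quantile normalization gave 3548 genes and 7 neighbours, an intensity trend 3306 genes, and array weights 4729 genes, 23 list genes and 7 neighbours. With the replicate block the counts were 685 genes, 7 list genes and 2 neighbours, and 2 members, Tnni3 and Tnnt1. Whether the replicate numbers pair these samples is not known, since the labels do not say how they were assigned. Leaving out each array in turn gave 813 to 1579 genes, 1 to 3 members, 8 to 15 list genes and 2 to 3 neighbours, with an arm of 2 arrays in each fit. Tnni3 was past the threshold in all 19 alternative gene fits, Tnnt1 in 16 and Tpm1 in 11, and the Tpm1 probes A_55_P2187038 and A_55_P2187043 in all 18 probe fits. Of 249 member probe values under the alternatives, 24 moved by more than the spread between replicates. Of 659 for single genes outside the family, 98 fell below the threshold and 10 rose above it. None of these values changed sign while past the threshold. The causes were not tested. Signals near background limit Tnni1, Tnnt2, Tnnt3, Tpm4 and the dim probes of Tnnt1 and Tpm3.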
